A study of Mus musculus with 24 samples.

Results

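The genes that encode the constitutive proteasome were examined in the frontal cortex of GFAP-IL6 mice and WT mice. The members were all protein-coding rows of the count table whose symbol was Psma, Psmb, Psmc or Psmd followed by a number, leaving out the immunoproteasome genes Psmb8, Psmb9 and Psmb10. This rule gave 36 of the 33000 genes in the table, and all 36 had at least 1 count. Libraries were prepared with 3'Pool-seq, in which oligo-dT priming and indexing yield fragments from the 3' ends of mRNAs, from total RNA of 3 WT C57BL/6 mice and 3 mice homozygous for the GFAP-IL6 transgene, all 3 months old. Each mouse gave 4 libraries, made with 2 ng or 1 ng of cDNA in the tagmentation step and carrying the letter A or B, whose meaning the labels do not give. The transgene places Il6 under the Gfap promoter, so that astrocytes are the intended source of the cytokine, and the WT mice carry no transgene. The 4 libraries of a mouse were summed, and the mouse was the replicate.

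The 20S core of the proteasome is a barrel of stacked rings of alpha subunits (Psma genes) and beta subunits (Psmb genes), and Psmb5, Psmb6 and Psmb7 encode the subunits that cut proteins. The 19S cap recognizes ubiquitin-tagged proteins, unfolds them with a ring of ATPases (Psmc genes) and holds further subunits (most Psmd genes). Interferons and other inflammatory signals are known to induce Psmb8, Psmb9 and Psmb10, whose products take the places of Psmb5, Psmb6 and Psmb7 in newly built immunoproteasomes. The 36 members comprised 8 alpha ring genes, 8 beta ring genes, 6 ATPases, 11 other 19S subunits and 3 genes (Psmd5, Psmd9 and Psmd10) for chaperones of 19S assembly.

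Promoter windows were compared because the catalytic genes and their replacements are the pairs on which the genotype comparison turns. RefSeq windows (GRCm38.p6) from 250 bases before to 50 bases after an annotated start matched 29 of the 36 members, and no window was matched for Psma8, Psmb1, Psmb2, Psmb7, Psmc3, Psmd3 and Psmd7. The windows shown lie at chr14:54617946-54618245 on the minus strand for Psmb5, chr11:70525107-70525406 on the plus strand for Psmb6, chr17:34197945-34198244 on the plus strand for Psmb8, chr17:34187281-34187580 on the minus strand for Psmb9 and chr8:105938343-105938642 on the minus strand for Psmb10. They are written 5' to 3' along the gene, and capitals mark a match to any of the motifs named below them.
Psmb5: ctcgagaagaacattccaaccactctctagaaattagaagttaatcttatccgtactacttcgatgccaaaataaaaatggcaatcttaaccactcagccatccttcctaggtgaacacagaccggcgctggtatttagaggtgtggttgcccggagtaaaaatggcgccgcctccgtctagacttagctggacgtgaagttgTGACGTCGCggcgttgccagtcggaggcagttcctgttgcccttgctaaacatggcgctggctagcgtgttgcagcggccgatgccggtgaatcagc
Psmb6: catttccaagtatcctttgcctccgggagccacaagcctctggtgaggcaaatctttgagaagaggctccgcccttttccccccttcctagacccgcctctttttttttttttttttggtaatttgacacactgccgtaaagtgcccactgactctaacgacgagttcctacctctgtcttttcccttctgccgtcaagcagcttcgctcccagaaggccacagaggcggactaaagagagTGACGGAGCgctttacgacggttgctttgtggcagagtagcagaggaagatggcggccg
Psmb8: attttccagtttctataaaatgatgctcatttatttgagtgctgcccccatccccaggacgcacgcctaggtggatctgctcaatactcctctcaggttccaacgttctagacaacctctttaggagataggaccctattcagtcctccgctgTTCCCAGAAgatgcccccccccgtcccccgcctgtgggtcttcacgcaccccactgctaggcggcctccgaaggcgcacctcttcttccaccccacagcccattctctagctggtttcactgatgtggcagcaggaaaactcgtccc
Psmb9: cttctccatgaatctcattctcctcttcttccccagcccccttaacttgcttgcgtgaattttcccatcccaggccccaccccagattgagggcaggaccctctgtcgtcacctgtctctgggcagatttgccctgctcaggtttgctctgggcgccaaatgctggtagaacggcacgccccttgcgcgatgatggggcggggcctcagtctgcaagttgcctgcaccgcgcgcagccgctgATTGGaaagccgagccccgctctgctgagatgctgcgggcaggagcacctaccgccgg
Psmb10: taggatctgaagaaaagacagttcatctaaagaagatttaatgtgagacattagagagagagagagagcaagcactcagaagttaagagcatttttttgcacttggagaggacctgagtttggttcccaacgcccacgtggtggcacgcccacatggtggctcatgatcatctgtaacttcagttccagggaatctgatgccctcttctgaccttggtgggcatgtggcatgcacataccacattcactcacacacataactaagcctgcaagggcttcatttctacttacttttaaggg

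Matches were sought on both strands for the antioxidant response element bound by Nfe2l1 and Nfe2l2 (TGACNNNGC or TGAGNNNGC), the CCAAT box, an interferon-stimulated response element and the STAT-bound GAS element (TTCNNNGAA). The window of Psmb5 held an antioxidant response element match at position -47 and that of Psmb6 at position -9, counted from the annotated start. The window of Psmb8 held a GAS match at position -97, that of Psmb9 a CCAAT match at position -8, and that of Psmb10 no match. In GENCODE vM21, Psmb8 begins at chr17:34197721 (plus strand) and Psmb9 at chr17:34187764 (minus strand). Both of their windows therefore lie inside the gene, at an internal start, and leave out the bases before the gene's first start. Among the 31 member windows, 48.4% held an antioxidant response element match, compared with 27.8% of all 32851 windows. CCAAT matches were in 38.7% of member windows and 37.4% of all windows. Interferon-stimulated response element matches were in 9.68% (3 of 31) and 3.44%, and GAS matches in 3.23% (1 of 31) and 8.30%. With so few member windows, these shares move much with a single window. Some member windows also lie inside the gene, among them those of Psmb11, Psmd5 and Psmd9. Those of Psmd5 and Psmd9 held antioxidant response element matches. That of Psmd9 also held 1 of the 3 interferon-stimulated response element matches. These are matches of letters, and no binding was measured.

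Summed counts were between 7852743 and 37582644 per mouse, and single libraries had 1524165 to 12256374 counts. The members took 0.580% to 0.691% of the counts of a mouse. In the summed libraries Il6 had 5, 3 and 0 counts in the WT mice and 30, 33 and 163 counts in the GFAP-IL6 mice, so the counts separated the groups as labelled. All 7 neuronal marker genes were measured, with a summed level of 5592 to 6679 CPM (counts scaled to a common library size by the trimmed mean of M-values, TMM). The choroid plexus markers Ttr, Kl and Folr1 summed to 4059 CPM in WT mouse 3 and to 76.9 to 748 CPM in the other mice, and the part of this in the results below was not tested.

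Expression of the members covered a broad range of levels. CPM values were not divided by gene length, since a transcript gives a fragment from its 3' end. Psma7, an alpha ring gene, had the highest level, with 547, 491 and 489 CPM in the WT mice and 546, 490 and 451 CPM in the GFAP-IL6 mice. Psmb1 followed with a mean of 400.3 CPM and Psmb6 with 347 CPM. At the other end of the tested members was Psmb7, with 17.2, 20.9 and 19.6 CPM in WT mice and 15.9, 19.1 and 18.6 CPM in GFAP-IL6 mice. The range from lowest to highest mean level was 27.1-fold across the 34 tested members, 21.6-fold within the beta ring, 3.98-fold within the alpha ring and 2.48-fold among the ATPases. The last 500 bases of Psmb7 overlap an exon of Nek6 on the other strand, and those of Psmc3 an exon of Slc39a13, and whether counting used strand is not given in the sources used here. In addition, the last 300 bases of 8 members (Psma3, Psma4, Psma5, Psmb1, Psmb3, Psmb5, Psmd2 and Psmd11) have an annotated copy of at least 97% identity, so that their level is uncertain because only uniquely aligned reads were counted.

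**Figure D1:**
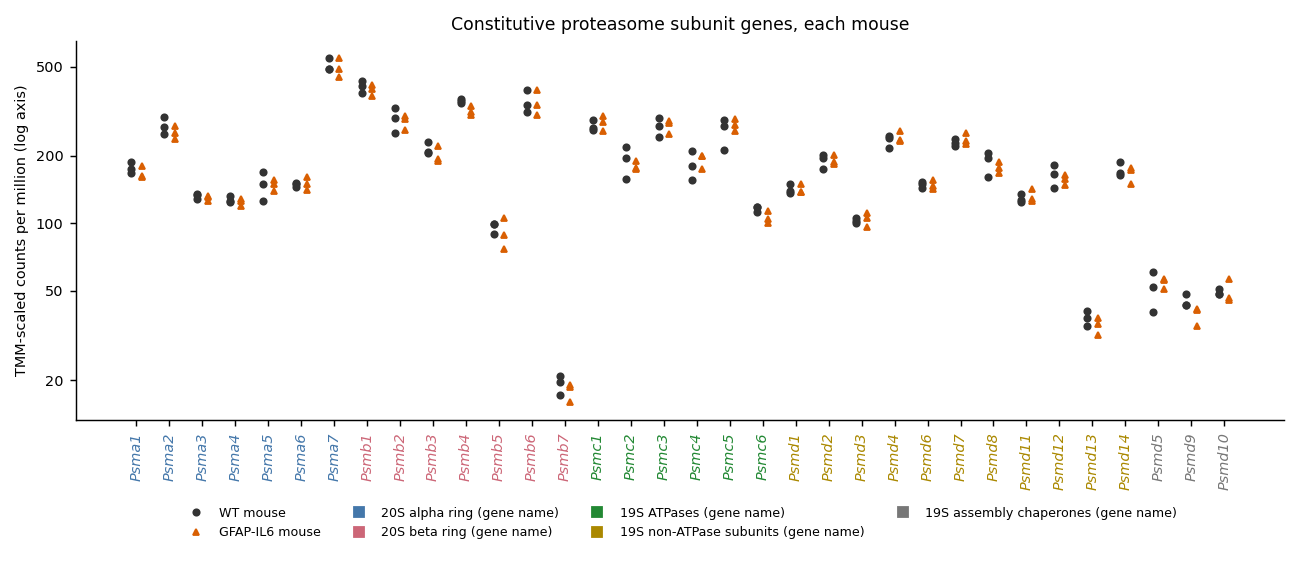
TMM-scaled CPM (log axis) of the 34 tested members in each of 3 WT mice (circles) and 3 GFAP-IL6 mice (triangles), with gene names coloured by role. Levels run from a mean of 18.5 CPM for Psmb7 to 502 CPM for Psma7, and the mice of both genotypes overlap in all but Psmb4 and Psmd9.

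The remaining 2 members did not pass the filter on low counts. Psma8, an alpha subunit known from the testis, had 4, 8 and 1 counts in the WT mice and 4, 16 and 19 counts in the GFAP-IL6 mice. Psmb11, the thymus-specific beta subunit, had 15 counts in all 6 mice together. No fold change is given for either gene. When tested without the filter by edgeR and by DESeq2, neither passed (unadjusted DESeq2 p = 0.238 for Psma8 and 0.816 for Psmb11).

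The comparison of GFAP-IL6 with WT asked which genes differ in a brain with astrocyte-driven Il6. None of the 34 tested members passed an adjusted p of 0.05 (edgeR's quasi-likelihood test with Benjamini-Hochberg adjustment over 14621 genes), while 1.8% of all tested genes did. Under the rule of the study, which also asks for an absolute log2 fold change above 1, none of the members passed and 1.23% of all tested genes did. At shares this low, a count of 0 among 34 genes is close to that of the genes in general. No member had an unadjusted p under 0.05 in edgeR, compared with 8.75% of all tested genes and 6.75% of those within the members' range of mean level. With DESeq2, 1 of 36 members had (Psmb4), compared with 5.36% of all genes. With limma-voom on the 24 libraries, 4 of 34 members had (Psma2, Psmb3, Psmb4 and Psmc6), compared with 13.6% of all genes. None passed after adjustment with either tool.

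The size of the differences was bounded more closely than their significance. Fitted log2 fold changes of the members lay between -0.20 and 0.09 with a median of -0.04, compared with -0.01 over all tested genes. The 95% intervals of all 34 members included 0 and lay within 0.5 of it on the log2 scale. The lowest bound was -0.41 (Psmd9) and the highest 0.34 (Psmd5), which correspond to 0.751 and 1.26 times the WT level. The median absolute log2 fold change was 0.05 for the members and 0.08 for the 6739 tested genes within the members' range of mean level. These intervals are for single genes and are not adjusted for their number.

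**Figure D2:**
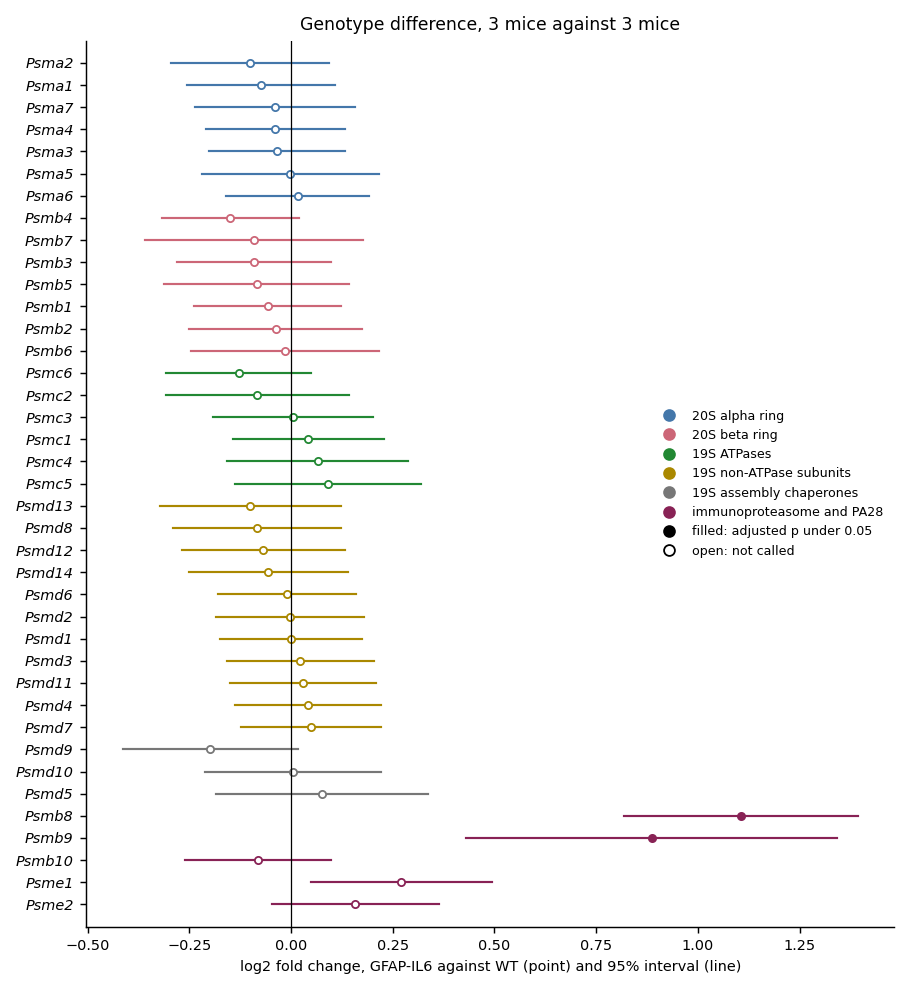
Log2 fold change between 3 GFAP-IL6 and 3 WT mice (points) with 95% intervals (lines) for the 34 tested members, coloured by role, and for 5 immunoproteasome and PA28 genes. All member intervals include 0, whereas Psmb8 and Psmb9 (filled points) lie at 1.11 and 0.89.

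Among the genes of the 20S core, 6 of 7 tested alpha ring genes and 7 of 7 tested beta ring genes had a fitted log2 fold change below 0 (5 and 6 of 7 when library totals were used without TMM), and none was called. Below 0 were also 7583 of all 14621 tested genes and 3939 of the 6739 within the members' range of mean level. Of all 34 tested members, 22 were below 0. On leaving out each mouse, that number ran from 14 (without WT mouse 1) to 28 (without WT mouse 3). The summed alpha ring level was 1517 ± 87.3 CPM in WT and 1473 ± 83.1 CPM in GFAP-IL6 mice (SD, n = 3 each). The summed beta ring level was 1731 ± 113 CPM in WT and 1652 ± 99.5 CPM in GFAP-IL6 mice. Both differences were smaller than the SD of either group.

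The catalytic genes showed no called difference. Psmb5, the chymotrypsin-like subunit, had 99.8, 99.4 and 89.9 CPM in WT mice and 77.2, 106 and 89.2 CPM in GFAP-IL6 mice. The GFAP-IL6 mice included both the lowest and the highest of these values, and the log2 fold change was -0.08 (SE 0.11, adjusted p = 0.905). Psmb6, the caspase-like subunit, had 395, 337 and 313 CPM in WT mice and 396, 337 and 304 CPM in GFAP-IL6 mice, which overlap almost fully. Its log2 fold change was -0.01 (SE 0.11, adjusted p = 0.991). For Psmb7, the trypsin-like subunit, the log2 fold change was -0.09 (SE 0.13, adjusted p = 0.916), with overlapping groups. Psmb5 lies at chr14:54614119-54618022 on the minus strand, Psmb6 at chr11:70525367-70527858 on the plus strand and Psmb7 at chr2:38588036-38644087 on the minus strand (GRCm38).

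Members whose groups did not overlap were Psmb4 and Psmd9, both lower in GFAP-IL6 mice, which is 5.88% of the tested members, compared with 14.4% of all tested genes with non-overlapping groups in either direction. Psmb4, a non-catalytic beta subunit (chr3:94884093-94886961, minus strand), had 345, 353 and 358 CPM in WT mice and 313, 333 and 306 CPM in GFAP-IL6 mice. Its log2 fold change was -0.15 (SE 0.08, adjusted p = 0.655). Psmd9, a chaperone of ATPase assembly (chr5:123169413-123250131, plus strand), had 48.2, 43.5 and 43.4 CPM in WT mice and 35.0, 41.0 and 41.4 CPM in GFAP-IL6 mice. Its log2 fold change was -0.20 (SE 0.10, adjusted p = 0.617), the lowest of the members.

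In the 19S cap, 2 of 6 ATPase genes and 6 of 11 other subunit genes had a fitted log2 fold change below 0, compared with 2 and 4 without TMM and 3 and 7 with DESeq2 size factors. Psmc6 was the lowest ATPase, with 113, 118 and 118 CPM in WT mice and 105, 114 and 100.1 CPM in GFAP-IL6 mice (log2 fold change -0.13, SE 0.08, adjusted p = 0.743). Psmc5 had the highest fitted value of all members, with 288, 273 and 212 CPM in WT mice and 294, 275 and 258 CPM in GFAP-IL6 mice (log2 fold change 0.09, SE 0.11, adjusted p = 0.893). WT mouse 3 was the low value in this gene, and without that mouse the log2 fold change was -0.03. The assembly chaperone gene Psmd5 (0.08, SE 0.12, adjusted p = 0.933) and the ATPase gene Psmc4 (0.07, SE 0.10, adjusted p = 0.931) were next, and both were also below 0 without WT mouse 3, at -0.05 and -0.03. Summed levels were 1290 ± 131 CPM in WT and 1306 ± 78.8 CPM in GFAP-IL6 mice for the ATPases, and 1742 ± 105 and 1736 ± 66.2 CPM for the other 19S subunits.

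Of the genes whose products replace the catalytic subunits, Psmb8 and Psmb9 were called and Psmb10 was not. Psmb8 had 9.99, 10.2 and 8.92 CPM in WT mice and 21.2, 18.5 and 23.3 CPM in GFAP-IL6 mice, and rose 2.15-fold (log2 fold change 1.11, SE 0.13, adjusted p = 0.000211). Psmb9 had 4.58, 4.38 and 2.76 CPM in WT mice and 6.43, 7.0 and 8.72 CPM in GFAP-IL6 mice, and rose 1.85-fold (log2 fold change 0.89, SE 0.21, adjusted p = 0.0485). The call for Psmb9 was lost without WT mouse 1, 2 or 3 or GFAP-IL6 mouse 2 or 3, where adjusted p was between 0.0695 and 0.406. It was also lost in each of the 4 single sets (0.0752 to 0.784), with at least 10 counts required in every summed library (0.0535) and with a replicate block (0.134), whereas Psmb8 passed under all alternatives run. Psmb10 had 165, 151 and 142 CPM in WT mice and 147, 148 and 139 CPM in GFAP-IL6 mice, with overlapping groups (log2 fold change -0.08, SE 0.08, adjusted p = 0.878). The PA28 activator genes Psme1 and Psme2 had log2 fold changes of 0.27 (adjusted p = 0.387) and 0.16 (adjusted p = 0.73).

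Ratios within a mouse set each replacement gene beside the member it displaces. For every 100 counts of Psmb5 there were 10.01, 10.3 and 9.93 counts of Psmb8 in WT mice and 27.5, 17.5 and 26.2 in GFAP-IL6 mice. The log2 ratio was higher by 1.21 in GFAP-IL6 mice, that is 2.31-fold, and all 3 were above all WT mice (two-sided exact permutation test, p = 0.1, the smallest value that 3 against 3 mice allow, and 0.15 after adjustment over the 3 pairs). For every 100 counts of Psmb6 there were 1.16, 1.30 and 0.879 counts of Psmb9 in WT mice and 1.63, 2.08 and 2.87 in GFAP-IL6 mice, a difference of 0.96 in the log2 ratio (exact permutation p = 0.1, adjusted 0.15). This p was larger in set 2 ng B (0.2), in set 1 ng B (0.3) and without WT mouse 3 (0.2). The log2 ratio of Psmb10 to Psmb7 was 2.99 ± 0.23 in WT and 3.02 ± 0.16 in GFAP-IL6 mice (SD, n = 3 each, exact permutation p = 0.8, adjusted 0.8). Even in GFAP-IL6 mice, counts of Psmb5 and Psmb6 exceeded those of Psmb8 and Psmb9 in every mouse. The level of Psmb5 is uncertain because of its copy of at least 97% identity, and it was 1.45-fold higher with 2 ng than with 1 ng of cDNA. In the third pair Psmb10 had the higher counts, with 724 to 958 for every 100 counts of Psmb7 across mice of both genotypes. Psmb7 had the lowest mean level of the tested members, 18.5 CPM, and its last 500 bases overlap an exon of Nek6 on the other strand. Whether counts of different genes reflect their relative amounts of transcript was not tested for any pair.

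**Figure D3:**
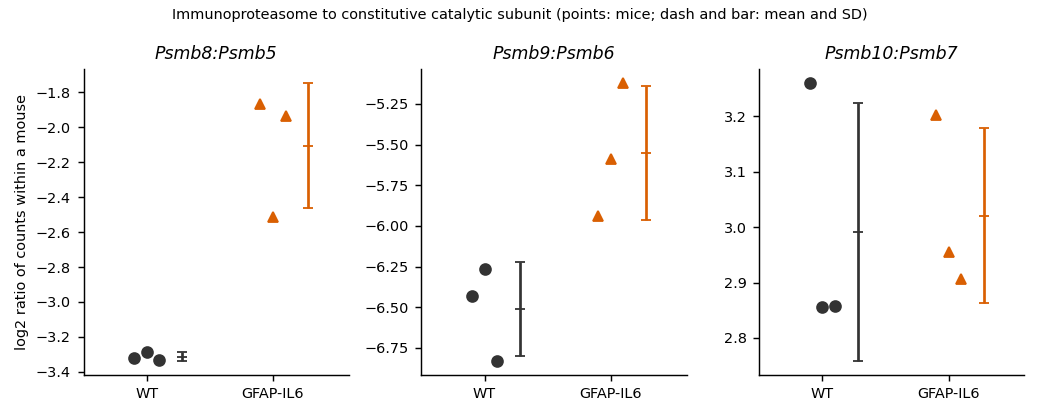
Log2 ratio of counts of each immunoproteasome gene to its constitutive counterpart within each mouse (points), with mean and SD of 3 mice per genotype, each panel on its own axis. Psmb8 to Psmb5 and Psmb9 to Psmb6 are higher in all GFAP-IL6 mice, by 1.21 and 0.96 on average, and Psmb10 to Psmb7 overlaps.

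Cell type markers moved with genotype beside these genes, and calls here are from edgeR unless another tool is named. Of 8 microglia and macrophage markers, 7 rose and P2ry12 did not pass (log2 fold change -0.02, adjusted p = 0.985), and their summed level was 238 to 260 CPM in WT and 368 to 478 CPM in GFAP-IL6 mice. Of 4 endothelial markers 1 passed (Flt1, log2 fold change 0.70, edgeR adjusted p = 0.00637). Cldn5, Cdh5 and Pecam1 were fitted higher too, at 0.83, 0.73 and 0.55, without passing. The summed endothelial level was 24.2 to 29.5 CPM in WT and 36.9 to 48.2 CPM in GFAP-IL6 mice. None of 7 neuronal, 6 astrocyte or 5 oligodendrocyte markers passed, although the summed astrocyte level was 2867 to 2965 CPM in WT and 3155 to 3376 CPM in GFAP-IL6 mice. None of 3 choroid plexus, 2 tested striatal or 5 blood markers passed, and 5 T cell and B cell markers were too low to test, at a summed 0.104 to 0.166 CPM in WT and 0.24 to 0.882 CPM in GFAP-IL6 mice. With limma-voom on the 24 libraries, the astrocyte markers Aqp4, Aldoc and Gja1 also passed as higher (adjusted p = 0.000241, 0.00264 and 0.036). The endothelial marker Cldn5 passed there as higher too (limma-voom adjusted p = 0.0164). The neuronal marker Syt1 and the striatal marker Ppp1r1b passed there as lower (limma-voom adjusted p = 0.0177 and 0.0157). The part of these cell types in the levels of the proteasome genes was not tested. In bulk tissue, a change in cell number and a change in RNA per cell cannot be told apart.

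Other genes of the pathway were taken from lists chosen for their known roles. None of 3 other activators and inhibitors (Psme3, Psme4, Psmf1), 5 assembly factors, 10 proteins bound to the 19S cap, 5 genes that control proteasome transcription, or 6 ubiquitin and E1 genes was called in either direction. Pomp, which is needed to assemble the 20S core, had a log2 fold change of 0.05 (adjusted p = 0.948). Nfe2l1, which drives the transcription of proteasome genes, had -0.05 (adjusted p = 0.944), and Nfe2l2, which acts in oxidative stress, had 0.35 (adjusted p = 0.389). The summed level of the 10 proteins bound to the cap was 1101 to 1128 CPM in WT and 1026 to 1083 CPM in GFAP-IL6 mice, without overlap. As single genes, 14.4% of all tested genes had non-overlapping groups, and no such share was computed for sums.

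The members varied together between mice of the same genotype. WT mouse 1 was the highest WT mouse in 26 of 34 members and WT mouse 3 the lowest in 26, and GFAP-IL6 mouse 3 was the lowest GFAP-IL6 mouse in 25. Relative to the mean of the 6 mice, the median log2 deviation of the members was 0.12 in WT mouse 1, 0.02 in WT mouse 2 and -0.05 in WT mouse 3, and 0.03, 0.04 and -0.08 in GFAP-IL6 mice 1, 2 and 3. Over all tested genes the median deviation was within 0.01 of 0 in each mouse, which TMM scaling largely sets in advance. The mouse order was shared with other lists. Assembly factors summed to 606, 548 and 523 CPM in WT mice and 592, 574 and 517 CPM in GFAP-IL6 mice. Ubiquitin and E1 genes and other activators and inhibitors had the same order. In WT mice the order was reversed for proteins bound to the cap (1101, 1109 and 1128 CPM) and genes controlling proteasome transcription (378, 382 and 418 CPM). The summed member level was 6870, 6425 and 5981 CPM in WT mice and 6545, 6450 and 5933 CPM in GFAP-IL6 mice. The means were 6425 ± 445 CPM in WT and 6309 ± 329 CPM in GFAP-IL6 mice (SD, n = 3 each). WT mouse 1 was 1.15-fold above WT mouse 3. A difference between means of 3 mice and a difference between single mice are unlike measures. The median log2 fold change of the members moved with single mice, to 0.01 without WT mouse 1, -0.07 without WT mouse 3 and 0.02 without GFAP-IL6 mouse 3. WT mouse 3 is also the mouse with the fewest counts and the highest choroid plexus marker level, and GFAP-IL6 mouse 3 the one with the most counts, and their part in this was not tested.

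**Figure D4:**
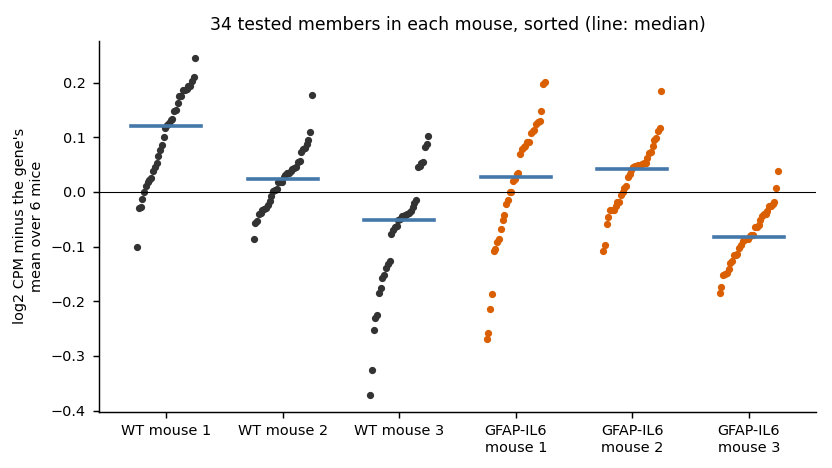
Log2 CPM of each of 34 tested members minus its mean over 6 mice, sorted within each mouse, with the median as a line. The medians are highest in WT mouse 1 (0.12) and lowest in GFAP-IL6 mouse 3 (-0.08), and those of the 3 WT mice run from 0.12 to -0.05.

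The 4 libraries per mouse also allowed a comparison of cDNA amounts within mice. Between 2 ng and 1 ng, 11 of 34 members were higher with 2 ng and 9 were lower (edgeR's quasi-likelihood test with mouse as a block, adjusted p under 0.05), compared with 15.6% and 17.7% of all 13389 tested genes. Among the 6735 tested genes in the members' range of mean level, 47.5% were called in either direction, compared with 58.8% of the members. By role, 5 of 7 alpha ring genes were higher and none lower, while 4 of 6 ATPases were lower and none higher.

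The largest of these differences was in Psmb5, which was higher with 2 ng in 6 of 6 mice (79.3 ± 9.38 CPM with 1 ng and 114 ± 12.2 CPM with 2 ng, SD, n = 6). Its log2 difference was 0.53 (SE 0.04, adjusted p = 1.04e-41, edgeR), and the 6 mice lay between 0.43 and 0.63. Psmb3, a non-catalytic beta subunit gene, was lower with 2 ng in 6 of 6 mice (231 ± 16.8 and 178 ± 13.5 CPM, log2 difference -0.38, edgeR adjusted p = 7.08e-42). The ATPase gene Psmc1 was likewise lower in 6 of 6 mice (301 ± 18.04 and 244 ± 15.6 CPM, log2 difference -0.30, edgeR adjusted p = 4.95e-35). Psmb5 and Psmb3 are among the members with a near-identical copy, and Psmc1 is not. As the 2 libraries at each amount come from the same RNA, these p-values measure technical spread only. In the published protocol, samples are pooled after reverse transcription, before amplification and tagmentation. Mice of 1 amount and set may thus share a reaction, and the sources used here do not give the pools. If they do, the 6 mice are not independent repeats, and amount cannot be told apart from pool. With genotype in place of the mouse in the model, 7 members were called.

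Between the sets, 10 members were higher in set B and 6 lower, compared with 11% and 12.3% of all 13581 tested genes. Among tested genes in the members' range of mean level, 35.6% were called in either direction, compared with 47.1% of the members. Psmd1, which encodes a large scaffold subunit of the 19S cap, was higher in set B in 6 of 6 mice (129 ± 11.4 CPM in A and 153 ± 2.51 CPM in B, log2 difference 0.26, edgeR adjusted p = 6.26e-09). Psmc6 was lower in 6 of 6 mice (123 ± 9.75 and 101 ± 6.21 CPM, log2 difference -0.27, edgeR adjusted p = 1.72e-08). Psmd14, the deubiquitinase of the 19S cap, was also lower in 6 of 6 mice (185 ± 15.1 and 157 ± 13.4 CPM, log2 difference -0.22, edgeR adjusted p = 2.97e-08). With genotype in place of the mouse, 3 members were called between the sets. The limit from pooling given for cDNA amounts holds for the sets too.

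These within-mouse differences were not detectably different between the genotypes. No member, and 0% of all tested genes, passed for the interaction of genotype with cDNA amount, nor, at 0% again, for that with set. By unadjusted p under 0.05, 1 member was found in each (Psma7, p = 0.00611, for cDNA amount, and Psma2, p = 0.0367, for set, both edgeR), compared with 3.94% and 4.29% of all tested genes. An absolute log2 difference above 0.25 was found in 6 members (17.6%) between cDNA amounts, in 2 (5.88%) between sets and in 0 (0%) between genotypes. The shares of all tested genes were 22.7%, 22.9% and 22.9%. These include genes at lower levels, whose values are less precise. Between genotypes, the median SE was 0.14 over all tested genes and 0.09 for the members.

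**Figure D5:**
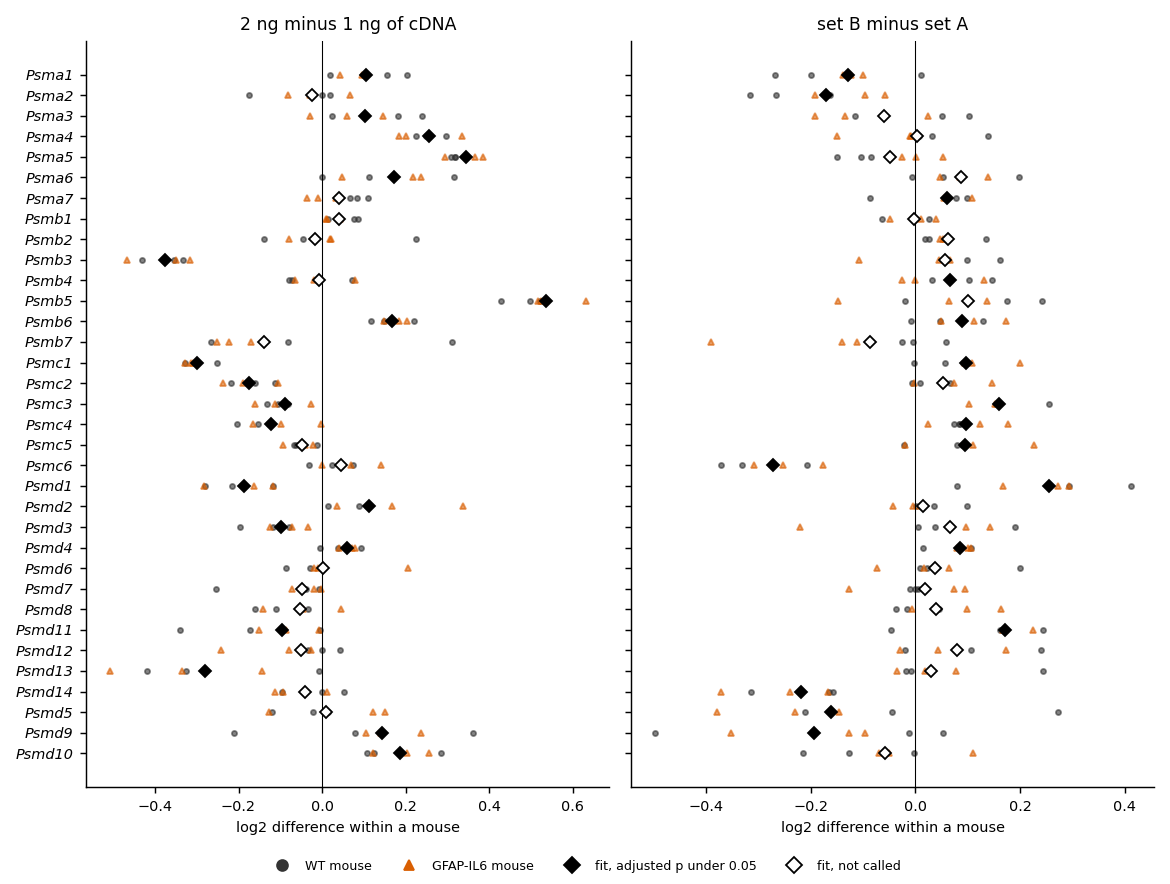
Log2 difference within each mouse between 2 ng and 1 ng of cDNA (left) and between set B and set A (right) for the 34 tested members, with circles for WT and triangles for GFAP-IL6 mice and diamonds for the fitted value, filled where adjusted p was under 0.05. All 6 mice lie to the right of 0 for Psmb5 and to the left for Psmb3 and Psmc1 in the left panel.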

How the data were processed

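Per the labels and the study's methods, 3'Pool-seq libraries were sequenced, trimmed of polyA and aligned by the authors with STAR 2.4, and uniquely aligned reads were counted per gene with featureCounts. The deposited values are raw counts. The methods name mm10 for mouse, whereas the submitters' processing notes name hg19, and positions here are from GENCODE vM21 on GRCm38.

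Counts of the 4 libraries of each mouse were summed (3 WT, 3 GFAP-IL6). Nothing was pooled across mice. Genes were filtered with filterByExpr, scaled by TMM and tested with edgeR 4.0.16 (quasi-likelihood, R 4.3.3), with Benjamini-Hochberg adjustment. cDNA amounts and sets were compared with libraries summed by mouse and level, with mouse as a block. Intervals are 95% from the fitted SE. Ratios were tested by exact permutation. The script was tested on simulated data. Library pairs all differed by more than sampling noise. Alternatives were DESeq2 1.42.0, limma 3.58.1 (voom), other scaling, other filters, single sets and leaving out each mouse. Copies were found with minimap2. Named were Psmb5, Psmb6 and Psmb7, any called member, the 3 extremes of fold change and of level, untested members and the 3 smallest p-values per technical comparison. Psmb4 and Psmd9 are also named for non-overlap. The members and lists were chosen with earlier results of these data known.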

Additional observations from a re-analysis of the deposited data

Results flagged for a closer look

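For 15 named members, the 6 mice's log2 differences between cDNA amounts and between sets were examined for a mouse far from the others, and 3 of 30 comparisons stood out, where chance gives about 1 in 20. For Psmb7, WT mouse 3 was higher with 2 ng by 0.31, while the other mice lay between -0.27 and -0.08. For Psmc1, WT mouse 1 had a log2 difference of -0.25 between 2 ng and 1 ng, and the other mice lay between -0.33 and -0.30. For Psma7, WT mouse 3 had a log2 difference of -0.087 between set B and set A, and the other mice lay between 0.06 and 0.11. The cause was not tested in any of them.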

How the results depend on the processing

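The count of members called between genotypes was 0 under all alternatives at an adjusted p of 0.05, and 0 with edgeR at 0.1. With limma-voom at 0.1, a combination chosen after seeing the data, it was 1 (Psmb4, adjusted p = 0.072). The count of 0 includes the replicate block, although replicate numbers do not pair the mice (same-number correlations -0.05, -0.04 and -0.07); with the block 0 members and 215 genes in all were called, and Psmb9 had an adjusted p of 0.134. The members' median log2 fold change was -0.05 to -0.01 under other tools, scaling and filters and in single sets, and -0.07 to 0.02 on leaving out each mouse. With genotype in place of the mouse, the count of members called was 7 (20 with the mouse) between cDNA amounts and 3 (16) between sets; on leaving out each mouse it was 17 to 20 and 12 to 19.

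Small uncalled differences changed sign. Without TMM, Psmb6 was at 0.012. In single sets, Psmb6 was at 0.039 (2 ng B), Psmb7 at 0.080 and Psmd14 at 0.0019 (1 ng A), Psmd5 at -0.085 and Psma7 at 0.0092 (1 ng B), and Psmc4 at -0.0061 and Psmc1 at -0.032 (2 ng A). Psmd1 was at -0.0082 with DESeq2, -0.0056 with its size factors, -0.0074 with limma-voom, -0.012 in set 1 ng A and -0.0025 in set 1 ng B. Leaving out each mouse gave -0.21 to 0.011 for Psmb5, -0.12 to 0.084 for Psmb6, -0.027 to 0.18 for Psmc5, -0.048 to 0.22 for Psmd5, -0.028 to 0.18 for Psmc4, -0.12 to 0.024 for Psma7, -0.013 to 0.10 for Psmc1, -0.042 to 0.041 for Psmd1 and -0.10 to 0.016 for Psmd14. The difference in the log2 ratio of Psmb10 to Psmb7 was -0.067 in set 2 ng A, -0.23 in set 1 ng A and -0.061 to 0.16 on leaving out each mouse; on leaving out each mouse it was 1.09 to 1.41 for Psmb8 to Psmb5 and 0.74 to 1.15 for Psmb9 to Psmb6, and in single sets 1.04 to 1.65 and 0.65 to 1.37. The cause was not tested. Psma8 and Psmb11, with 52 and 15 counts in all, were tested only without the filter and with DESeq2.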
